A study of Mus musculus with 38 samples.

Results

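The 34 genes described here encode enzymes and carriers of fatty acid oxidation, together with the nuclear receptor gene Ppara. They were chosen by name, as every row of the raw count tables whose gene symbol stands on a fixed list of this pathway, and 34 of the 55487 genes in those tables met the rule. By role they comprised 1 gene of fatty acid activation (Acsl1), 5 of the carnitine shuttle (Cpt1a, Slc25a20, Cpt2, Crat, Crot), 6 acyl-CoA dehydrogenases (Acadvl, Acadl, Acadm, Acads, Acad11, Acad12), 6 of the later mitochondrial steps (Hadha, Hadhb, Echs1, Hadh, Hsd17b10, Acaa2), 4 auxiliary enzymes for unsaturated chains (Eci1, Eci2, Decr1, Ech1), 8 peroxisomal enzymes (Acox2, Acox3, Ehhadh, Hsd17b4, Acaa1a, Acaa1b, Decr2, Eci3), 3 of electron transfer (Etfa, Etfb, Etfdh) and Ppara itself. All 34 passed the filter on low counts in each of the 3 experiments.

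The question was how the hormone FGF23 affects the healthy and the diseased mouse kidney, and bulk RNA-Seq gave 38 libraries. In the first experiment, male C57BL/6JRj mice aged 8 weeks were immunized with sheep IgG in adjuvant and given nephrotoxic serum to cause anti-glomerular basement membrane (anti-GBM) disease, or stayed healthy, and each arm received recombinant human FGF23 or vehicle in daily injections for 6 days. It held 4 healthy vehicle kidneys (libraries NTS1 to NTS4), 4 anti-GBM vehicle kidneys (NTS5 to NTS8), 3 healthy FGF23 kidneys (NTS9 to NTS11) and 3 anti-GBM FGF23 kidneys (NTS13, NTS14 and NTS16, where the column taken as NTS14 is headed 14 but also NTS4). In the second, the mice were female BALB/c, 8 weeks old, and were injected once with Adriamycin, a podocyte-toxic drug, or its vehicle, and once with FGF23 or vehicle, 24 h before the kidney was taken, with 4 kidneys in each group (healthy vehicle Ad1 to Ad4, Adriamycin vehicle Ad5 to Ad8, healthy FGF23 Ad9 to Ad12, Adriamycin FGF23 Ad13 to Ad16). The third used precision-cut kidney slices of male DBA/2J mice fed adenine, which injures the tubules, cultured with vehicle (1V to 4V) or FGF23 (1F to 4F). It had no slices from disease-free mice, so it allows only the comparison of FGF23 with vehicle, and the exposure is 1 h in the sample labels but 24 h in the study's text.

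Fatty acids are activated to acyl-CoA, carried into the mitochondrion as carnitine esters, and shortened in cycles of dehydrogenation, hydration, a second dehydrogenation and thiolysis, with the electrons passed to the respiratory chain. Very long and branched chains are first shortened in the peroxisome by a parallel set of enzymes. The proximal tubule, the most energy-demanding segment of the nephron, relies on this pathway, and PPAR-alpha, the product of Ppara, is the receptor best known for switching on many of its genes.

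Promoter sequences are shown for 4 members: Ehhadh, with the largest fall in the anti-GBM kidneys given vehicle; Etfa and Acox2, which fell there and hold a match to the motif described next; and Slc25a20, the member that rose. The windows run from 250 bases before to 50 bases after the start site on the gene's own strand (RefSeq, build GRCm38.p6). Capitals mark a match to the direct repeat AGGTCANAGGTCA, the arrangement that PPAR-alpha with its partner RXR is known to bind, with up to 2 mismatches among its 12 fixed letters on either strand. The Ehhadh window is chr16:21787785-21788084 on the minus strand, that of Etfa chr9:55512194-55512493 on the minus strand, that of Acox2 chr14:8258790-8259089 on the minus strand and that of Slc25a20 chr9:108661886-108662185 on the plus strand.
Ehhadh: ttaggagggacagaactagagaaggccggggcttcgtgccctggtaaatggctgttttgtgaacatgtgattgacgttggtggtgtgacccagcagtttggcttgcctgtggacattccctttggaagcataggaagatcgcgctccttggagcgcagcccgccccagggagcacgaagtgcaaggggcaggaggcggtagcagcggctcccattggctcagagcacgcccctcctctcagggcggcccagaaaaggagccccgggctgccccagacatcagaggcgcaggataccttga
Etfa: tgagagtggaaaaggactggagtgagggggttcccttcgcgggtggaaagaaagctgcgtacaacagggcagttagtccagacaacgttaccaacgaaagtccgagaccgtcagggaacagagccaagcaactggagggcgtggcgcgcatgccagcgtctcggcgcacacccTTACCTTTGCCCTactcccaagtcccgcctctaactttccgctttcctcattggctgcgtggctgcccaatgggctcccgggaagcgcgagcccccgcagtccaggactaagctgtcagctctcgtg
Acox2: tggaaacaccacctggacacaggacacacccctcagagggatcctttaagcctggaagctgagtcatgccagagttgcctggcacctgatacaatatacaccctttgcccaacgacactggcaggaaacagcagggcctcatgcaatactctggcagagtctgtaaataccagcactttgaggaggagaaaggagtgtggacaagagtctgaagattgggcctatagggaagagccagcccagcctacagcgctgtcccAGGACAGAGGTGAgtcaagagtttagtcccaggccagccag
Slc25a20: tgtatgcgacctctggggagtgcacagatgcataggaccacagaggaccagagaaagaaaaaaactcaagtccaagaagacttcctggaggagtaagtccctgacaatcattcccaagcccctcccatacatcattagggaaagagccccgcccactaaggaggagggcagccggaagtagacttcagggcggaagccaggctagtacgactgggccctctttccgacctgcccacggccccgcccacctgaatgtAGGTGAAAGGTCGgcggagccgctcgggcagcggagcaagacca
The match in Slc25a20 began 6 bases and that in Acox2 9 bases after the start site, both on the gene's strand, and the match in Etfa began at position -77 on the opposite strand. The Ehhadh window held none, nor did the window of another Acox2 start site, chr14:8258970-8259269 on the minus strand. A window was given for 30 of the 34 members, in 32 windows, and the only other match was in Echs1 at position -83. That made 4 member genes with a match, where 3.86% of the 32851 mouse promoter windows held one. Hadha and Hadhb, which encode the subunits of the mitochondrial trifunctional protein, lie head to head, and their windows share 228 bases.

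Total counts per library ran from 13704248 to 23630210 in the anti-GBM experiment, from 15665050 to 27583911 in the Adriamycin experiment and from 11186925 to 16254987 in the slices. The 34 members together took 0.818 to 1.02% of all counts in the healthy C57BL/6 kidneys, 0.712 to 0.865% in the anti-GBM kidneys, 0.749 to 1.00% in the BALB/c kidneys and 0.153 to 0.215% in the slices. The label kidney held against proximal tubule markers such as Lrp2, Cubn and Slc34a1: the 15 markers summed to 20195 to 24760.2 CPM (counts scaled to library size) in the healthy vehicle C57BL/6 kidneys and to 17042 to 18846 CPM in the healthy vehicle BALB/c kidneys, whereas the 14 measured in the vehicle slices summed to 694 to 884 CPM. Some libraries stood apart. The fat cell gene Adipoq exceeded 10 CPM only in NTS3 and NTS9 (17.2 and 26.5 CPM) and in Ad9 and Ad10 (38.1 and 34.9 CPM), and slice culture 1F had 3.98% of its counts on mitochondrial genes against 1.72 to 2.22% in the other slices. Counts of called members and medians were also computed without these libraries (1F together with 1V). Levels below are CPM after scaling by TMM, given in the order of the libraries, and changes are log2 fold changes ± standard error from edgeR's quasi-likelihood test with Benjamini-Hochberg adjustment over all genes tested in a comparison. A member was called at an adjusted p under 0.05. In bulk tissue, fewer cells of a type and less RNA per cell cannot be told apart.

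Levels per kilobase were taken over the exons of all annotated transcripts of a gene together, and the order depends on this length. In Acadm it was 3913 bases, while the longest transcript held 1948 windows of 100 bases. In Ehhadh it was 2981 bases, with 2882 windows. On this scale the level in the healthy vehicle C57BL/6 kidney was highest for Ehhadh (371.5 CPM per kilobase), Acadm (242.1 CPM per kilobase) and Etfa (191.6 CPM per kilobase). It was lowest for Acad12 (8.27 CPM per kilobase). In the healthy vehicle BALB/c kidney Acaa1b led, with 256.3 CPM per kilobase, ahead of Acadm (246.6 CPM per kilobase) and Ehhadh (216.5 CPM per kilobase), and Acad12 was again last with 8.51 CPM per kilobase. In the vehicle slices the order was another one: Acadl (75.7 CPM per kilobase) and Etfa (42.2 CPM per kilobase) led, Ehhadh had 4.85 CPM per kilobase, and Ppara (1.07 CPM per kilobase) stood with Acad12 (0.963 CPM per kilobase) at the end. These are means per group, and strain, sex and disease differ between the experiments, so the orders are set side by side without a test.

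**Figure D1:**
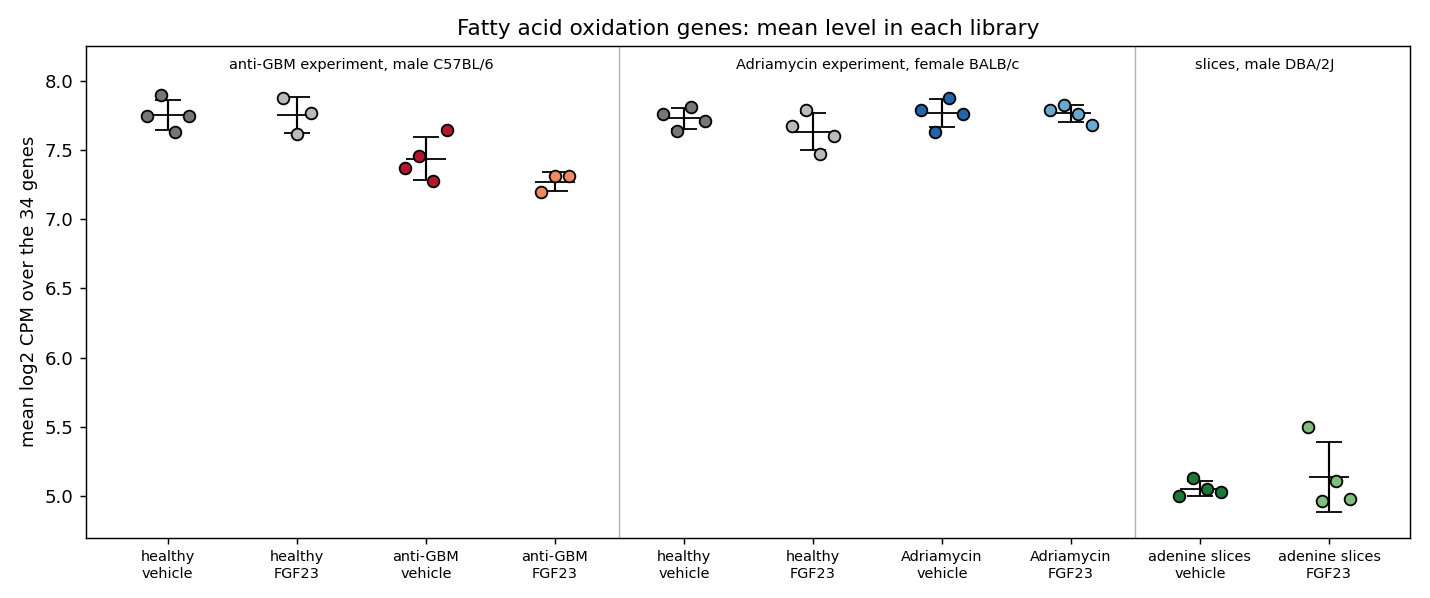
Mean log2 CPM over the 34 members in each of the 38 libraries (points), by group on the horizontal axis, with the group mean and standard deviation (bars). The anti-GBM groups average 7.44 (vehicle) and 7.27 (FGF23) against 7.75 in both healthy C57BL/6 groups, the 4 BALB/c groups lie between 7.63 and 7.76, and the slices stand near 5.

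Averaged over the 34 members, the log2 CPM was 7.75 ± 0.11 (SD, n = 4) in the healthy vehicle kidneys, 7.44 ± 0.16 (SD, n = 4) in the anti-GBM vehicle kidneys, 7.75 ± 0.13 (SD, n = 3) in the healthy FGF23 kidneys and 7.27 ± 0.07 (SD, n = 3) in the anti-GBM FGF23 kidneys. The vehicle groups overlapped narrowly, since the highest anti-GBM kidney, NTS8, reached 7.64 and the lowest healthy one, NTS3, had 7.63. In the FGF23 groups all 3 anti-GBM kidneys lay below the 3 healthy ones. The same average over the 15 proximal tubule markers went from 9.92 ± 0.13 to 9.33 ± 0.21 with vehicle and from 9.72 ± 0.11 to 9.09 ± 0.23 with FGF23, and its part in the changes of the members was not tested.

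Disease was compared with health first in the mice given vehicle. Fatty acid oxidation genes were mostly lower in the anti-GBM kidney: 28 of the 34 members were lower, 16 of them past the threshold, where 20.4% of all 15859 genes were called lower. Slc25a20 rose, as the 1 member called higher, where 19.4% of all genes were. The median change over the members was -0.26 on the log2 scale, and over all genes -0.01. By role, 6 of the 8 peroxisomal genes, 4 of the 6 acyl-CoA dehydrogenases, 2 of the 3 electron transfer genes, 2 of the 5 shuttle genes, 1 of the 6 genes of the later mitochondrial steps and 1 of the 4 auxiliary genes fell, and the roles were not tested against each other. Acsl1 and Ppara were not called.

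Among the genes of entry, Acsl1, which activates long-chain fatty acids, had 215, 268, 243 and 279 CPM in the healthy kidneys and 156, 153, 302 and 284 CPM in the anti-GBM kidneys. NTS5 and NTS6 lay below all healthy kidneys and NTS7 and NTS8 above them, so the groups overlapped, and the change was -0.17 ± 0.21 (adjusted p = 0.558). Cpt1a (ENSMUSG00000024900, GRCm38 chr19:3322334-3385733, plus strand), the enzyme that commits long chains to mitochondrial import, had 712, 730.4, 741 and 769 CPM in the healthy and 669, 567, 523 and 498 CPM in the anti-GBM kidneys. The groups did not overlap, and Cpt1a fell by 0.39 ± 0.09 (adjusted p = 0.00308), to 76.4% of the healthy level. Slc25a20, the translocase that moves acylcarnitines across the inner membrane, had 58.9, 67.7, 56.0 and 63.6 CPM in the healthy and 63.1, 69.2, 74.9 and 92.7 CPM in the anti-GBM kidneys. It rose by 0.28 ± 0.10 (adjusted p = 0.0405) with overlapping groups, and the call was lost when any 1 of NTS1, NTS3, NTS7 and NTS8 was left out. Crot, the peroxisomal octanoyltransferase, fell by 0.94 ± 0.28 (adjusted p = 0.0155) from a wide range of 389 to 791 CPM in the healthy kidneys to 199 to 403 CPM, and the groups overlapped. Cpt2 and Crat, with changes of -0.18 and -0.18, were not called.

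The acyl-CoA dehydrogenases carry out the first step of each cycle. Acad11 (ENSMUSG00000090150, GRCm38 chr9:104063377-104127725, plus strand), which acts on long chains, had 289, 333, 302 and 349 CPM in the healthy and 247, 211, 229.8 and 228 CPM in the anti-GBM kidneys. The groups were separate, and its change of -0.48 ± 0.08 (adjusted p = 0.000556) had the smallest p of the members. Acad12, a less studied relative, had 60.9, 58.0, 46.0 and 50.7 CPM against 28.1, 35.5, 27.5 and 40.8 CPM, again without overlap. It fell by 0.71 ± 0.12 (adjusted p = 0.000588), and 10.2% of the 100-base windows of its transcript also occur in Acad10, so some of its reads may be shared. Acads, for short chains, had 225, 231, 214 and 218 CPM in the healthy and 172, 162, 130.4 and 195 CPM in the anti-GBM kidneys, which did not overlap, and fell by 0.43 ± 0.11 (adjusted p = 0.00703). Acadm, for medium chains, varied more, with 1124, 1243, 641 and 782 CPM in the healthy and 403, 659, 377 and 771 CPM in the anti-GBM kidneys. NTS6 and NTS8 lay within the healthy range, and Acadm fell by 0.78 ± 0.25 (adjusted p = 0.0228). Acadl and Acadvl, for longer chains, were not called, with changes of -0.29 and -0.09.

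Of the later mitochondrial steps only Hadh, the short-chain hydroxyacyl-CoA dehydrogenase, was called, and the call was lost when any 1 of 7 of the 8 kidneys was left out. It had 584, 654, 646 and 589 CPM in the healthy and 547, 501, 392 and 523 CPM in the anti-GBM kidneys, without overlap, and its change was -0.33 ± 0.12 (adjusted p = 0.0337). Hadha, the hydratase and dehydrogenase subunit of the trifunctional protein, had 263, 265, 249 and 279.8 CPM against 241, 244, 265 and 319.8 CPM. The groups overlapped, and the change was 0.02 ± 0.09 (adjusted p = 0.899). Hadhb, Echs1, Hsd17b10 and the thiolase gene Acaa2 had changes between -0.19 and 0.03, none called. Of the auxiliary enzymes, Decr1, the mitochondrial dienoyl-CoA reductase, had 228, 290.5, 240.0 and 238 CPM in the healthy and 189.7, 211, 179.8 and 224 CPM in the anti-GBM kidneys. The highest anti-GBM kidney stayed just under the lowest healthy one, and Decr1 fell by 0.31 ± 0.11 (adjusted p = 0.0366), a call likewise lost without any 1 of 7 kidneys. Ech1, Eci2 and Eci1 had changes of -0.24, -0.01 and 0.17 and were not called.

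The largest fall of any member was that of Ehhadh (ENSMUSG00000022853, GRCm38 chr16:21761287-21787807, minus strand), the peroxisomal bifunctional enzyme whose promoter is printed above. It had 1116, 1439.7, 787 and 1086 CPM in the healthy and 431, 529, 509 and 646 CPM in the anti-GBM kidneys, so every diseased kidney lay below every healthy one. The change of -1.07 ± 0.19 (adjusted p = 0.00073) left 47.8% of the healthy level. Hsd17b4, the other peroxisomal bifunctional enzyme, had 279, 309.5, 274 and 283 CPM against 241, 239, 219 and 246 CPM, without overlap, and fell by 0.28 ± 0.07 (adjusted p = 0.00797). Acox2 and Acox3, oxidases of branched chains, fell, with changes of -0.89 ± 0.31 (adjusted p = 0.0319) and -0.42 ± 0.15 (adjusted p = 0.0356), and for both the groups overlapped. Eci3 and Decr2 fell, with changes of -0.68 ± 0.19 (adjusted p = 0.00982) and -0.24 ± 0.08 (adjusted p = 0.0239), both without overlap. The peroxisomal thiolase genes Acaa1a and Acaa1b are near copies: 9.75% of the 100-base windows of Acaa1a and 22.6% of those of Acaa1b occur in the other. Acaa1a had 127, 125, 135 and 148 CPM against 141, 132, 106 and 123 CPM, and its change was -0.09 ± 0.10 (adjusted p = 0.512). Acaa1b had 250.2, 319, 200.2 and 307 CPM against 214, 224, 238 and 302 CPM, with a change of -0.14 ± 0.16 (adjusted p = 0.511). Neither was called, and their summed counts changed by -0.12 ± 0.12 (adjusted p = 0.439).

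Electron transfer from the dehydrogenases runs through the flavoprotein of Etfa and Etfb and its oxidoreductase, Etfdh. Etfdh had 220.1, 261, 229 and 235 CPM in the healthy and 173, 178, 161 and 185 CPM in the anti-GBM kidneys and fell by 0.44 ± 0.09 (adjusted p = 0.00137). Etfa (ENSMUSG00000032314, GRCm38 chr9:55454508-55512243, minus strand) had 346, 376, 362 and 323 CPM against 283, 274, 212 and 283 CPM and fell by 0.42 ± 0.10 (adjusted p = 0.00505). In both genes every anti-GBM kidney was below every healthy one. Etfb changed by 0.06 and was not called, but 65.2% of its 100-base windows occur in the overlapping gene Gm45233, so its counts are uncertain. Ppara had 64.5, 91.1, 68.6 and 91.6 CPM in the healthy and 72.8, 51.5, 81.2 and 36.8 CPM in the anti-GBM kidneys. The anti-GBM kidneys spread from below to within the healthy range, and the change of -0.38 ± 0.20 (adjusted p = 0.156) was not called.

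**Figure D2:**
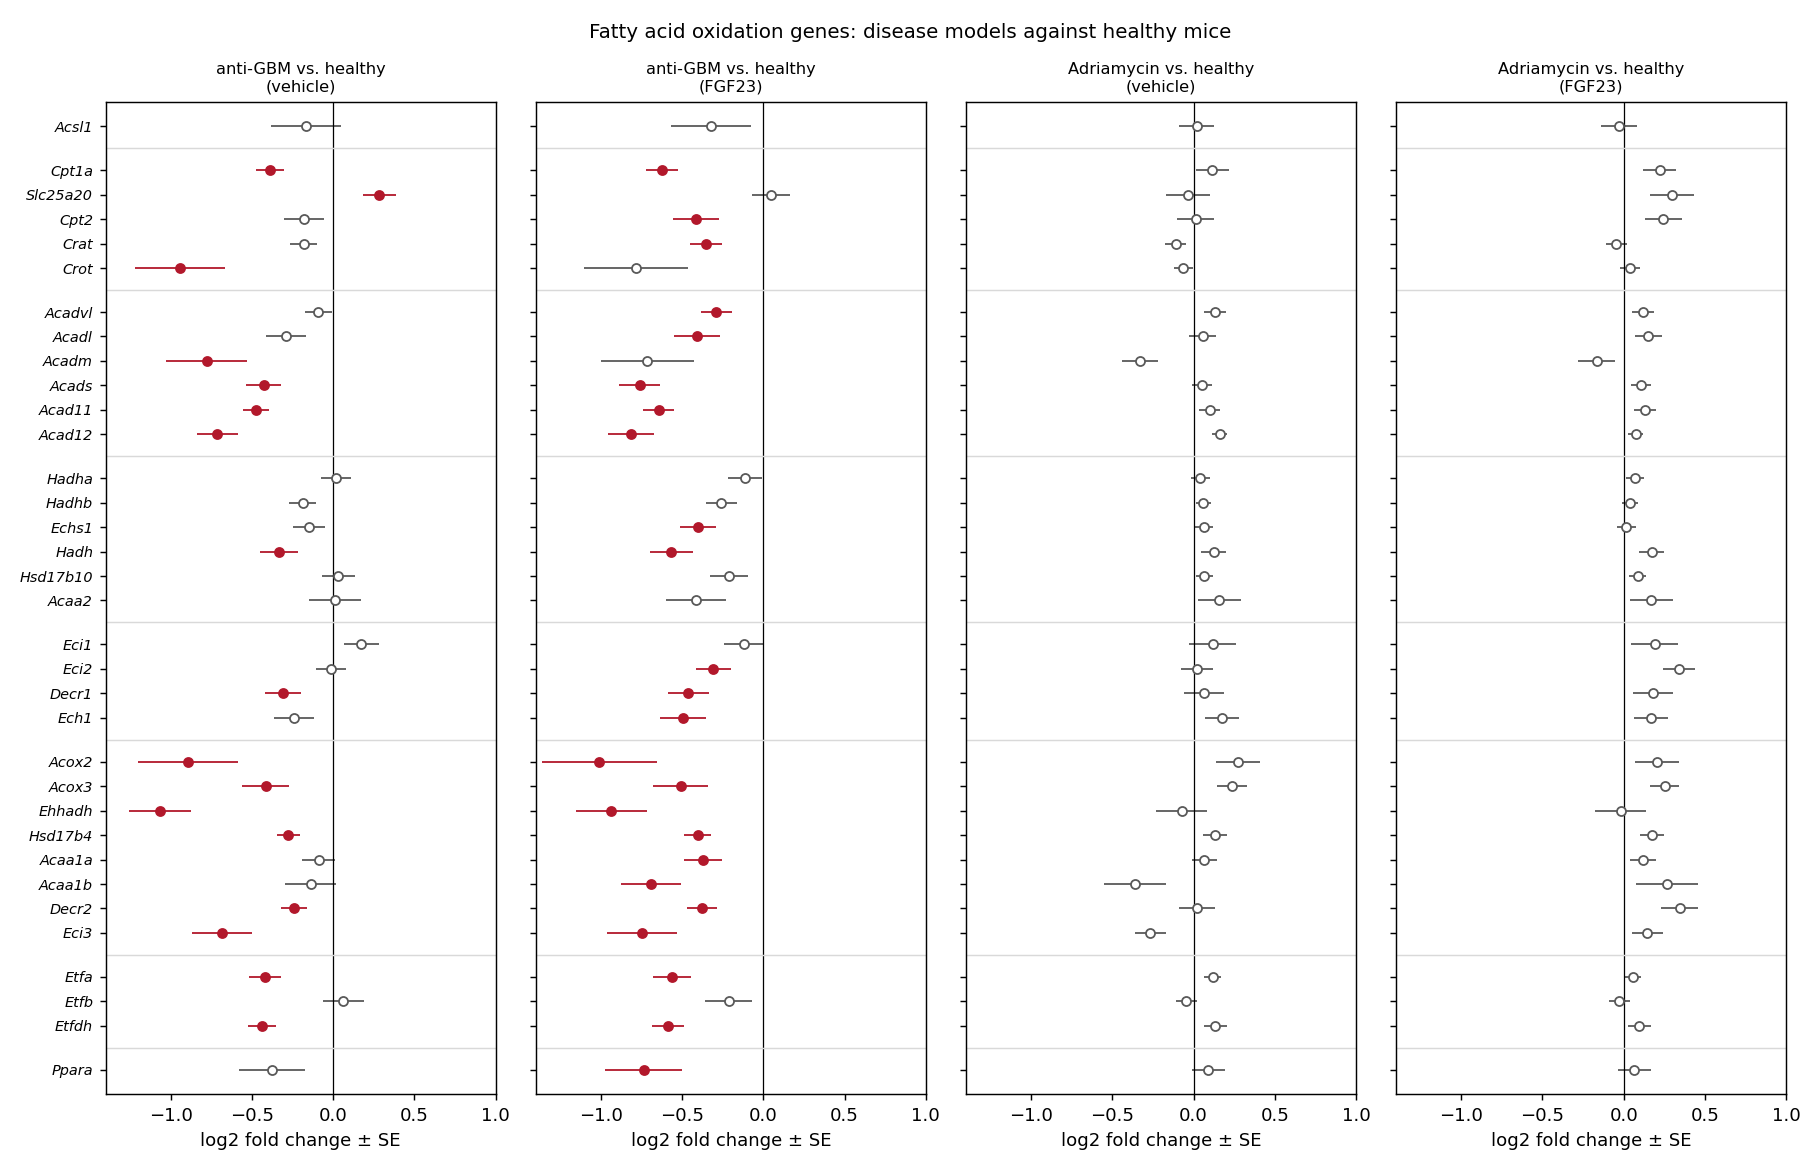
Log2 fold change of each of the 34 members with its standard error, disease against healthy, for anti-GBM with vehicle, anti-GBM with FGF23, Adriamycin with vehicle and Adriamycin with FGF23; filled symbols are called at an adjusted p under 0.05. Filled symbols occur only in the anti-GBM comparisons, all below 0 except Slc25a20 with vehicle. The Adriamycin values lie on both sides of 0, most of them above it.

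The count of called members depended on single kidneys. It was 9 without NTS1, 10 without NTS2 and 11 without NTS7, against 17, and Cpt1a, Acads, Acad11, Acad12, Ehhadh, Eci3, Etfa and Etfdh were called under each of the 13 alternatives that changed the normalization, the filter, the tool, the groups fitted or the libraries. The other 9 calls were lost under 2 (Hsd17b4) to 10 (Hadh and Decr1) of these, 8 for Acox3 and Decr2 and 6 for Acox2 and Slc25a20. The share of all genes called without a kidney was not counted, so the drop in called members cannot be told from that of smaller groups. Leaving out NTS2 moved the median change from -0.26 to -0.16.

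The same comparison in the mice given FGF23 rests on other kidneys, and most members fell there too: 33 of the 34 members were lower in anti-GBM disease and 24 fell past the threshold, where 12.7% of all genes were called lower, while 0 rose by edgeR or DESeq2, where 14.5% of all genes were called higher by edgeR. At an unadjusted p under 0.05, 28 members passed, where 38.7% of all genes did. The median change was -0.44 over the members and -0.02 over all genes. All 8 peroxisomal genes fell, with 5 of 6 dehydrogenases, 3 of 5 shuttle genes, 3 of 4 auxiliary genes, 2 of 3 electron transfer genes, 2 of the 6 later mitochondrial genes, and Ppara. The comparisons with vehicle and with FGF23 called 14 members lower in common, which are 87.5% of the 16 and 58.3% of the 24. Over all genes, 3228 were called lower with vehicle and 2011 with FGF23, and those in common were not counted. Whether the overlap is particular to the members was thus not tested. Both comparisons also came from the same fit, with shared estimates of the spread.

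Cpt1a had 719.7, 693 and 699.6 CPM in the healthy FGF23 kidneys and 449, 452 and 470.1 CPM in the anti-GBM FGF23 kidneys, and fell by 0.62 ± 0.10 (adjusted p = 0.000516). Both groups were tight and far apart. Crat and Cpt2 fell as well, with changes of -0.35 ± 0.10 (adjusted p = 0.0143) and -0.42 ± 0.14 (adjusted p = 0.0408), whereas Crot (-0.78, adjusted p = 0.0843) and Slc25a20 (0.05, adjusted p = 0.802) were not called. Acsl1, with 270.0, 238 and 198 CPM against 202, 219 and 145 CPM, was not called either.

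Acad11 again had the smallest p, with 325, 286 and 275 CPM in the healthy and 181, 196 and 190.1 CPM in the anti-GBM kidneys and a change of -0.65 ± 0.09 (adjusted p = 0.000277). Acads had 269.5, 211 and 226 CPM against 129, 141 and 147 CPM and fell by 0.76 ± 0.13 (adjusted p = 0.000691). Acad12 had 55.1, 51.2 and 59.5 CPM against 29.5, 31.8 and 32.9 CPM and fell by 0.81 ± 0.14 (adjusted p = 0.000962). None of these groups overlapped. Acadm had 1021, 744 and 1233 CPM against 605, 595 and 626 CPM, and although the groups were separate, the wide spread of the healthy kidneys went with a change that was not called, -0.71 ± 0.29 (adjusted p = 0.0798). Acadl and Acadvl fell as well, with changes of -0.41 ± 0.14 (adjusted p = 0.0429) and -0.29 ± 0.10 (adjusted p = 0.0385). Both calls were lost when any 1 of NTS9, NTS11, NTS13, NTS14 and NTS16 was left out.

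Hadh and Echs1 fell, with changes of -0.57 ± 0.13 (adjusted p = 0.00659) and -0.40 ± 0.11 (adjusted p = 0.0161). Hadha, with 256, 232 and 261 CPM in the healthy and 217, 237 and 239 CPM in the anti-GBM kidneys, overlapped and had a change of -0.11 ± 0.10 (adjusted p = 0.457). Ech1, Decr1 and Eci2 fell, with changes of -0.49, -0.46 and -0.31 and adjusted p of 0.019, 0.015 and 0.0486 by edgeR. Eci1, Hsd17b10, Hadhb, Acaa2 and Etfb were not called, with changes between -0.41 and -0.12.

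Ehhadh had 1210.4, 739 and 1129.6 CPM in the healthy and 552, 601 and 457 CPM in the anti-GBM kidneys, without overlap, and fell by 0.94 ± 0.22 (adjusted p = 0.0064). Hsd17b4 had 315, 272 and 275 CPM against 210.1, 227 and 214 CPM and fell by 0.40 ± 0.08 (adjusted p = 0.00292). Acox2 showed the largest change of a member here, -1.01 ± 0.35 (adjusted p = 0.047), with 124 to 221 CPM in the healthy and 60.2 to 94.4 CPM in the anti-GBM kidneys. Acox3, Decr2 and Eci3 fell, with changes of -0.51, -0.38 and -0.75. The peroxisomal thiolase genes were both called in this comparison. Acaa1a had 137, 141 and 127 CPM against 88.5, 109 and 116 CPM and fell by 0.37 ± 0.12 (adjusted p = 0.0292). Acaa1b had 335, 270.1 and 246 CPM against 153, 205 and 169 CPM and fell by 0.69 ± 0.18 (adjusted p = 0.0125). Their sum fell by 0.58 ± 0.14 (adjusted p = 0.00679).

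Etfdh had 270.4, 213 and 223 CPM in the healthy and 148, 156 and 167 CPM in the anti-GBM kidneys and fell by 0.59 ± 0.10 (adjusted p = 0.000809). Etfa had 375, 314 and 347 CPM against 211, 239 and 252 CPM and fell by 0.56 ± 0.12 (adjusted p = 0.00307). Ppara had 77.7, 69.9 and 66.7 CPM in the healthy FGF23 kidneys and 49.2, 35.3 and 44.2 CPM in the anti-GBM FGF23 kidneys, so here the groups did not overlap. It fell by 0.74 ± 0.24 (adjusted p = 0.0328). Without NTS9 the count of called members was 10, without NTS11 15 and without NTS13 11, and without both NTS3 and NTS9, the kidneys with Adipoq over 10 CPM, it was 9 with a median change of -0.33. The share of all genes called under these exclusions was not counted. Cpt1a, Acads, Acad11, Acad12, Ehhadh, Hsd17b4, Etfa and Etfdh were called under each of the 11 alternatives of the same kinds, and the other calls were lost under 1 (Hadh and Decr2) to 8 (Acadvl) of them.

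Genes around the pathway were counted on lists of their own in the same fits, to be read against the 20.4% (vehicle) and 12.7% (FGF23) of all genes called lower and the 19.4% and 14.5% called higher. Of 36 other genes of fatty and branched-chain acid oxidation, 22 fell and 3 rose with vehicle, and 21 fell and 3 rose with FGF23, with medians over the list of -0.39 and -0.51. The smallest p belonged to Acadsb (-0.61) and to Acsm5 (-1.36), Acsm1 (-1.07) and Acat1 (-0.97) with vehicle, and to Acsm5 (-1.21), Acad8 (-0.56), Pcca (-0.65) and Gcdh (-0.67) with FGF23. Acsm5 and Acsm1 activate medium-chain acids, and the others act in the breakdown of branched-chain and other amino acids or ketone bodies. PPAR-alpha target genes outside the pathway went both ways: of 27 tested, 8 fell and 8 rose with vehicle, and 8 fell and 2 rose with FGF23 (medians 0.16 and -0.18). With vehicle, the uncoupling protein gene Ucp2 rose by 1.13 (adjusted p = 1.7e-05) and Angptl4, an inhibitor of lipoprotein lipase, by 1.54, while the fatty acid transporter gene Cd36 (-1.44) and the aldehyde dehydrogenase gene Aldh3a2 (-0.68) fell. With FGF23, Ucp2 (0.84) and Tfeb (0.48) rose and Aldh3a2 (-0.73) and the catalase gene Cat (-0.72) fell.

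Co-activators and other nuclear receptors fell in 10 of 21 and rose in 1 of 21 with vehicle, and fell in 6 with FGF23, where 0 rose by edgeR (medians -0.28 and -0.20). With vehicle the smallest p were those of Prkaa2 (-0.80), a catalytic subunit of the energy sensor AMPK, the mitochondrial transcription factor gene Tfam (-0.40), Hnf4a (-0.49) and Esrrg (-0.62). With FGF23 they were those of Ppargc1b (-0.84), Tfam (-0.43), the mitochondrial deacetylase gene Sirt3 (-0.56) and Hnf4a (-0.47). Of 18 citric acid cycle genes (medians -0.12 and -0.31), 4 fell with vehicle, Dld, Sucla2, Sdha and Dlst, and 9 with FGF23, led by Sucla2 (-0.54), Dld (-0.43), Sdha (-0.42) and Idh3g (-0.39). Of 15 genes of fatty acid synthesis (medians -0.08 and -0.19), 3 fell and 1 rose with vehicle (Me1 -0.73, Gpam -0.70, Acaca -0.55 and Elovl5 0.21), and 3 fell and 2 rose with FGF23, led by Gpam (-1.03), Me1 (-0.72), Dgat2 (-0.55) and Scd2 (0.84). Over all genes, 20.4% fell and 19.4% rose with vehicle, and 12.7% fell and 14.5% rose with FGF23. With vehicle, the falls on the citric acid cycle and synthesis lists were thus near the share over all genes. Among markers of cell types, 9 of 15 proximal tubule genes fell with vehicle and 6 with FGF23. All 7 tubular injury genes rose in both comparisons, as did 9 and 8 of 11 leukocyte genes and 7 and 4 of 7 fibroblast genes. The 15 proximal tubule markers summed to 13566 to 20399.7 CPM in the anti-GBM vehicle and 10936 to 14625 CPM in the anti-GBM FGF23 kidneys, and the leukocyte markers to 266 to 379 CPM and 336 to 366 CPM, against 114 to 131 CPM in the healthy vehicle kidneys. Their part in the falls of the members was not tested.

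The effect of FGF23 itself was compared within each state of health. In healthy C57BL/6 kidneys no member was called by edgeR, where 0% of all genes were, 0 members passed an unadjusted p under 0.05, where 4.34% of all genes did, and DESeq2 called 0 members, with 0% of genes. The median change of the members was 0.01. Cpt1a changed by -0.07 ± 0.09, Acadm by 0.08 ± 0.27, Ehhadh by -0.11 ± 0.20, Hadha by -0.08 ± 0.10, Ppara by -0.14 ± 0.22 and the sum of Acaa1a and Acaa1b by 0.06 ± 0.13.

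In anti-GBM kidneys FGF23 went with lower values of 30 of the 34 members and a median change of -0.19, against 0.00 over all genes, but no single member was called. Without NTS8 the median was -0.12. The average over the 15 proximal tubule markers was 9.33 ± 0.21 with vehicle and 9.09 ± 0.23 with FGF23 (SD, n = 4 and 3), and its part in the shift was not tested. By edgeR 0 members passed, where 0.24% of all genes did, and 13 passed an unadjusted p under 0.05, where 12.6% did. DESeq2 called 0 members and 1.05% of all genes. The 6 genes of the later mitochondrial steps were all lower, 5 of them at an unadjusted p under 0.05. Acaa2, the mitochondrial thiolase gene and the member with the smallest p, had 207, 178, 225 and 257 CPM with vehicle and 126, 163 and 147 CPM with FGF23. Every FGF23 kidney was below every vehicle kidney, and the change was -0.58 ± 0.17 (adjusted p = 0.286). When p-values of the 5 comparisons of this experiment were adjusted together, Acaa2 was the 1 member called, with an adjusted p of 0.048. That adjustment pooled these p-values with those of the disease comparisons. The share of all genes it called was not counted, so this call cannot be set against it.

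Cpt1a also separated the anti-GBM groups, with the levels given above, and changed by -0.30 ± 0.09 (adjusted p = 0.294). Hadha was lower in all 3 FGF23 kidneys than in all 4 vehicle kidneys, with a change of -0.21 ± 0.10 (adjusted p = 0.39). Ppara changed by -0.50 ± 0.22 (adjusted p = 0.379), Acaa1a by -0.27 ± 0.11 (adjusted p = 0.363), Acaa1b by -0.48 ± 0.17 (adjusted p = 0.337) and their sum by -0.40 ± 0.13 (adjusted p = 0.31). The 4 members above 0 were Acadm (0.14 ± 0.27), Ehhadh (0.02 ± 0.20), Crot and Acox2. Whether the effect of FGF23 differed between diseased and healthy kidneys was tested as an interaction. It was negative for 31 of the 34 members, with a median of -0.17, or -0.11 without NTS3 and NTS9. By edgeR 0 members were called, where 0.0315% of all genes were, and by DESeq2 0 members and 0.344% of genes. Only Acaa1b (-0.55 ± 0.24, adjusted p = 0.581) had an unadjusted p under 0.05, where 8.3% of all genes did. The interaction was -0.24 for Cpt1a, 0.06 for Acadm, 0.13 for Ehhadh, -0.13 for Hadha, -0.36 for Ppara and -0.28 for Acaa1a.

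**Figure D3:**
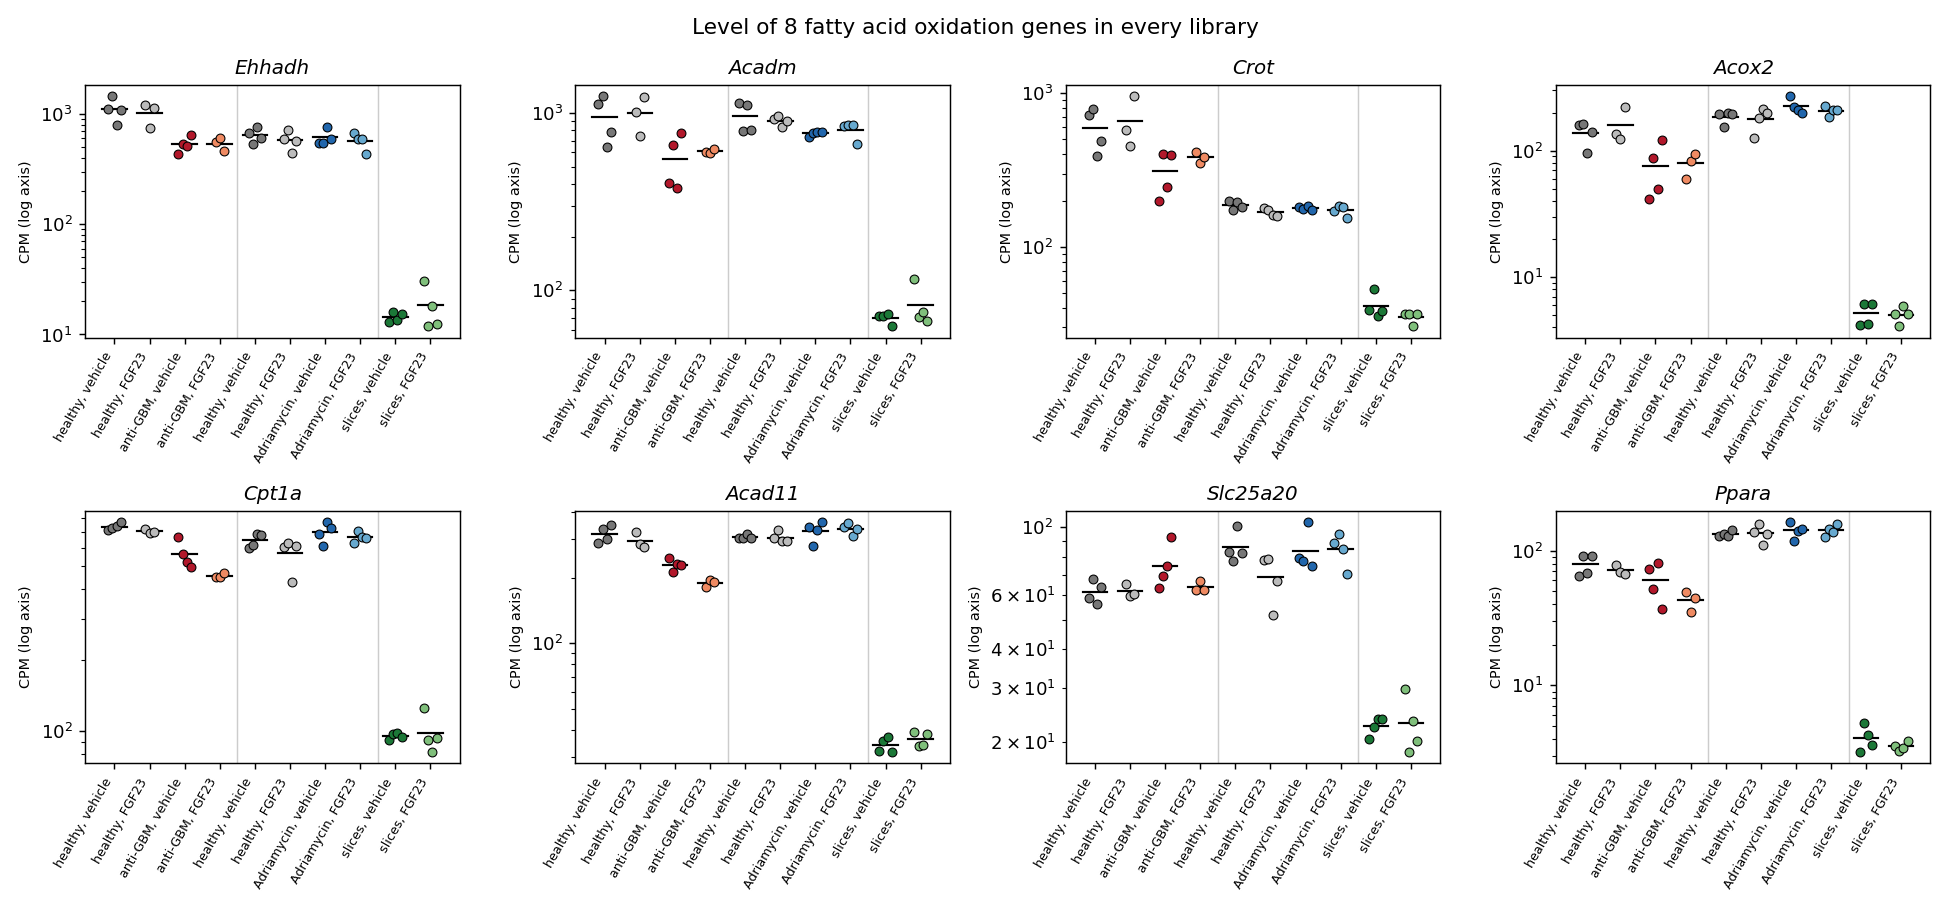
CPM of selected members in every library of the 3 experiments (points), by group, with the group mean as a bar. Ehhadh, Cpt1a and Acad11 sit lower in both anti-GBM groups than in the healthy C57BL/6 groups, and for these genes the healthy and Adriamycin BALB/c groups overlap.

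Adriamycin nephropathy, the second disease model, was compared with health in BALB/c mice. In the vehicle groups the members lay close to their healthy levels: 26 of 34 were higher, with a median change of 0.06. No member was called by edgeR, 0 against 0.331% of all genes, while 5 had an unadjusted p under 0.05, where 8.27% of genes did, and DESeq2 called 0 members and 0.814% of genes. Those 5 were Acad12, Acadm, Eci3, Acox3 and Etfa.

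Acsl1 had 387, 395, 415 and 403 CPM in the healthy and 396, 377, 458 and 388 CPM in the Adriamycin kidneys, a change of 0.02 ± 0.11. Cpt1a had 600.1, 617, 683 and 678 CPM against 688, 609, 770.2 and 726 CPM and changed by 0.12 ± 0.10. Crat, which loads and unloads acetyl groups, had 230.3, 209, 249.6 and 212 CPM against 209, 207, 222 and 196 CPM and changed by -0.11 ± 0.06. The groups overlapped in all of these. Acad12 had 57.2, 54.8, 55.1 and 54.7 CPM in the healthy and 63.3, 57.3, 63.9 and 63.7 CPM in the Adriamycin kidneys. The groups just failed to touch, and the change of 0.16 ± 0.04 (adjusted p = 0.21) was upward, where it was downward in anti-GBM disease. Acadm had 1137, 798, 1118 and 807 CPM against 731, 778, 785 and 784 CPM, without overlap, and changed by -0.33 ± 0.11 (adjusted p = 0.36). Ad1 and Ad3 were far above the other healthy kidneys in this gene.

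Hadha had 401, 386, 403 and 388 CPM in the healthy and 401, 393, 456 and 375 CPM in the Adriamycin kidneys, a change of 0.04 ± 0.06. Hadh had 525, 506, 514 and 525 CPM against 579, 480.0, 594 and 605 CPM, a change of 0.13 ± 0.08. Ech1, the dienoyl-CoA isomerase gene, had 418, 371, 402 and 381 CPM against 442, 395, 528 and 409 CPM, a change of 0.17 ± 0.10. In each of these 3 the groups overlapped, and Ad7 was the highest Adriamycin kidney in Hadha and Ech1. Ehhadh had 677, 539, 762 and 604 CPM against 545, 549, 768 and 591 CPM and changed by -0.07 ± 0.16, with overlapping groups. Eci3, a peroxisomal isomerase, had 118, 116, 139 and 121 CPM against 121, 105, 81.5 and 103 CPM and changed by -0.27 ± 0.10 (adjusted p = 0.41).

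Acaa1a had 135, 132, 147 and 139 CPM in the healthy and 149, 119, 153 and 158 CPM in the Adriamycin kidneys, and Acaa1b 478, 442, 627 and 465 CPM against 415, 334, 432 and 388 CPM. Acaa1b was lower in every Adriamycin kidney, with a change of -0.36 ± 0.19 (adjusted p = 0.67), and the sum changed by -0.25 ± 0.15. Etfa had 315, 288, 292 and 309 CPM against 336, 299, 329.8 and 339.7 CPM and changed by 0.12 ± 0.05 (adjusted p = 0.568). Ppara had 129, 132, 128 and 142 CPM against 162, 118, 141 and 144 CPM and changed by 0.09 ± 0.10, with overlap.

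With FGF23 the members were higher in the Adriamycin than in the healthy kidneys for 29 of 34, with a median of 0.13, and 0.20 without Ad9 and Ad10. By edgeR 0 were called, where 0.699% of all genes were, and 8 had an unadjusted p under 0.05, where 12.7% of genes did. DESeq2 called 1 member, the isomerase gene Eci2 (0.35 ± 0.10, adjusted p = 0.0493), and 1.68% of all genes. Without Ad9 and Ad10, left out after the data were seen, edgeR called 1, Decr2 (0.56 ± 0.12, adjusted p = 0.0493). Only Ad11 and Ad12 then remained as healthy FGF23 kidneys, and the share of all genes called was not counted. Cpt1a changed by 0.22 ± 0.10, Acadm by -0.17 ± 0.11, Ehhadh by -0.02 ± 0.16, Hadha by 0.07 ± 0.06, Ppara by 0.07 ± 0.10 and the Acaa1 sum by 0.23 ± 0.15.

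Of the wider pathway lists, 1 gene rose in the Adriamycin kidneys given vehicle, Cyp4a12a (1.10, adjusted p = 0.0303), a PPAR-alpha target that hydroxylates fatty acids. With FGF23, Cyp4a12a (0.93) and the peroxisomal lyase gene Hacl1 (0.42) rose and the synthesis genes Scd1 (-0.95) and Acaca (-0.73) fell. No gene of the co-activator list (20 tested) or the citric acid cycle list (18 tested) was called by edgeR in either comparison. Over all genes, 0.331% (vehicle) and 0.699% (FGF23) were called. At an unadjusted edgeR p under 0.05, 1 and 0 genes of these lists passed with vehicle, where 8.27% of all genes did. With FGF23, 5 and 0 passed, where 12.7% of all genes did. The proximal tubule markers summed to 15648 to 20606 CPM with Adriamycin and vehicle, against 17042 to 18846 CPM in the healthy vehicle kidneys.

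FGF23 against vehicle in healthy BALB/c kidneys gave 25 of 34 members lower, with a median of -0.06, and -0.15 without Ad9 and Ad10. The edgeR calls were 0 among the members and 0% of all genes, 8 members had an unadjusted p under 0.05, where 6.69% of genes did, and DESeq2 called 0 members and 0.0443% of genes. Cpt1a had 604, 629.9, 429.6 and 612 CPM with FGF23, of which Ad11 was by far the lowest, and changed by -0.18 ± 0.10. Acadm changed by -0.09 ± 0.11, Ehhadh by -0.16 ± 0.16, Hadha by -0.13 ± 0.06, Ppara by 0.03 ± 0.10 and the Acaa1 sum by -0.34 ± 0.15.

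In Adriamycin kidneys FGF23 left 20 members lower and 14 higher, with a median of -0.01. The call count was 0 by edgeR, where 0.0375% of all genes were, 0 had an unadjusted p under 0.05, where 5.69% of genes did, and DESeq2 called 0 members and 0.189% of genes. Cpt1a changed by -0.07 ± 0.10, Acadm by 0.07 ± 0.11, Ehhadh by -0.10 ± 0.16, Hadha by -0.10 ± 0.06, Ppara by 0.00 ± 0.10 and the Acaa1 sum by 0.14 ± 0.15. The interaction of FGF23 with Adriamycin had a median of 0.04, with 24 of 34 members above 0. By edgeR 0 members and 0% of genes were called, and by DESeq2 0 members and 0.0486% of genes. Eci3 (0.41 ± 0.14), Acaa1b (0.63 ± 0.27) and Eci2 (0.32 ± 0.14) had an unadjusted p under 0.05, as did 5.11% of all genes. The interaction was 0.11 for Cpt1a, 0.16 for Acadm, 0.06 for Ehhadh, 0.03 for Hadha and -0.02 for Ppara. Without Ad9 and Ad10 its median was 0.15.

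**Figure D4:**
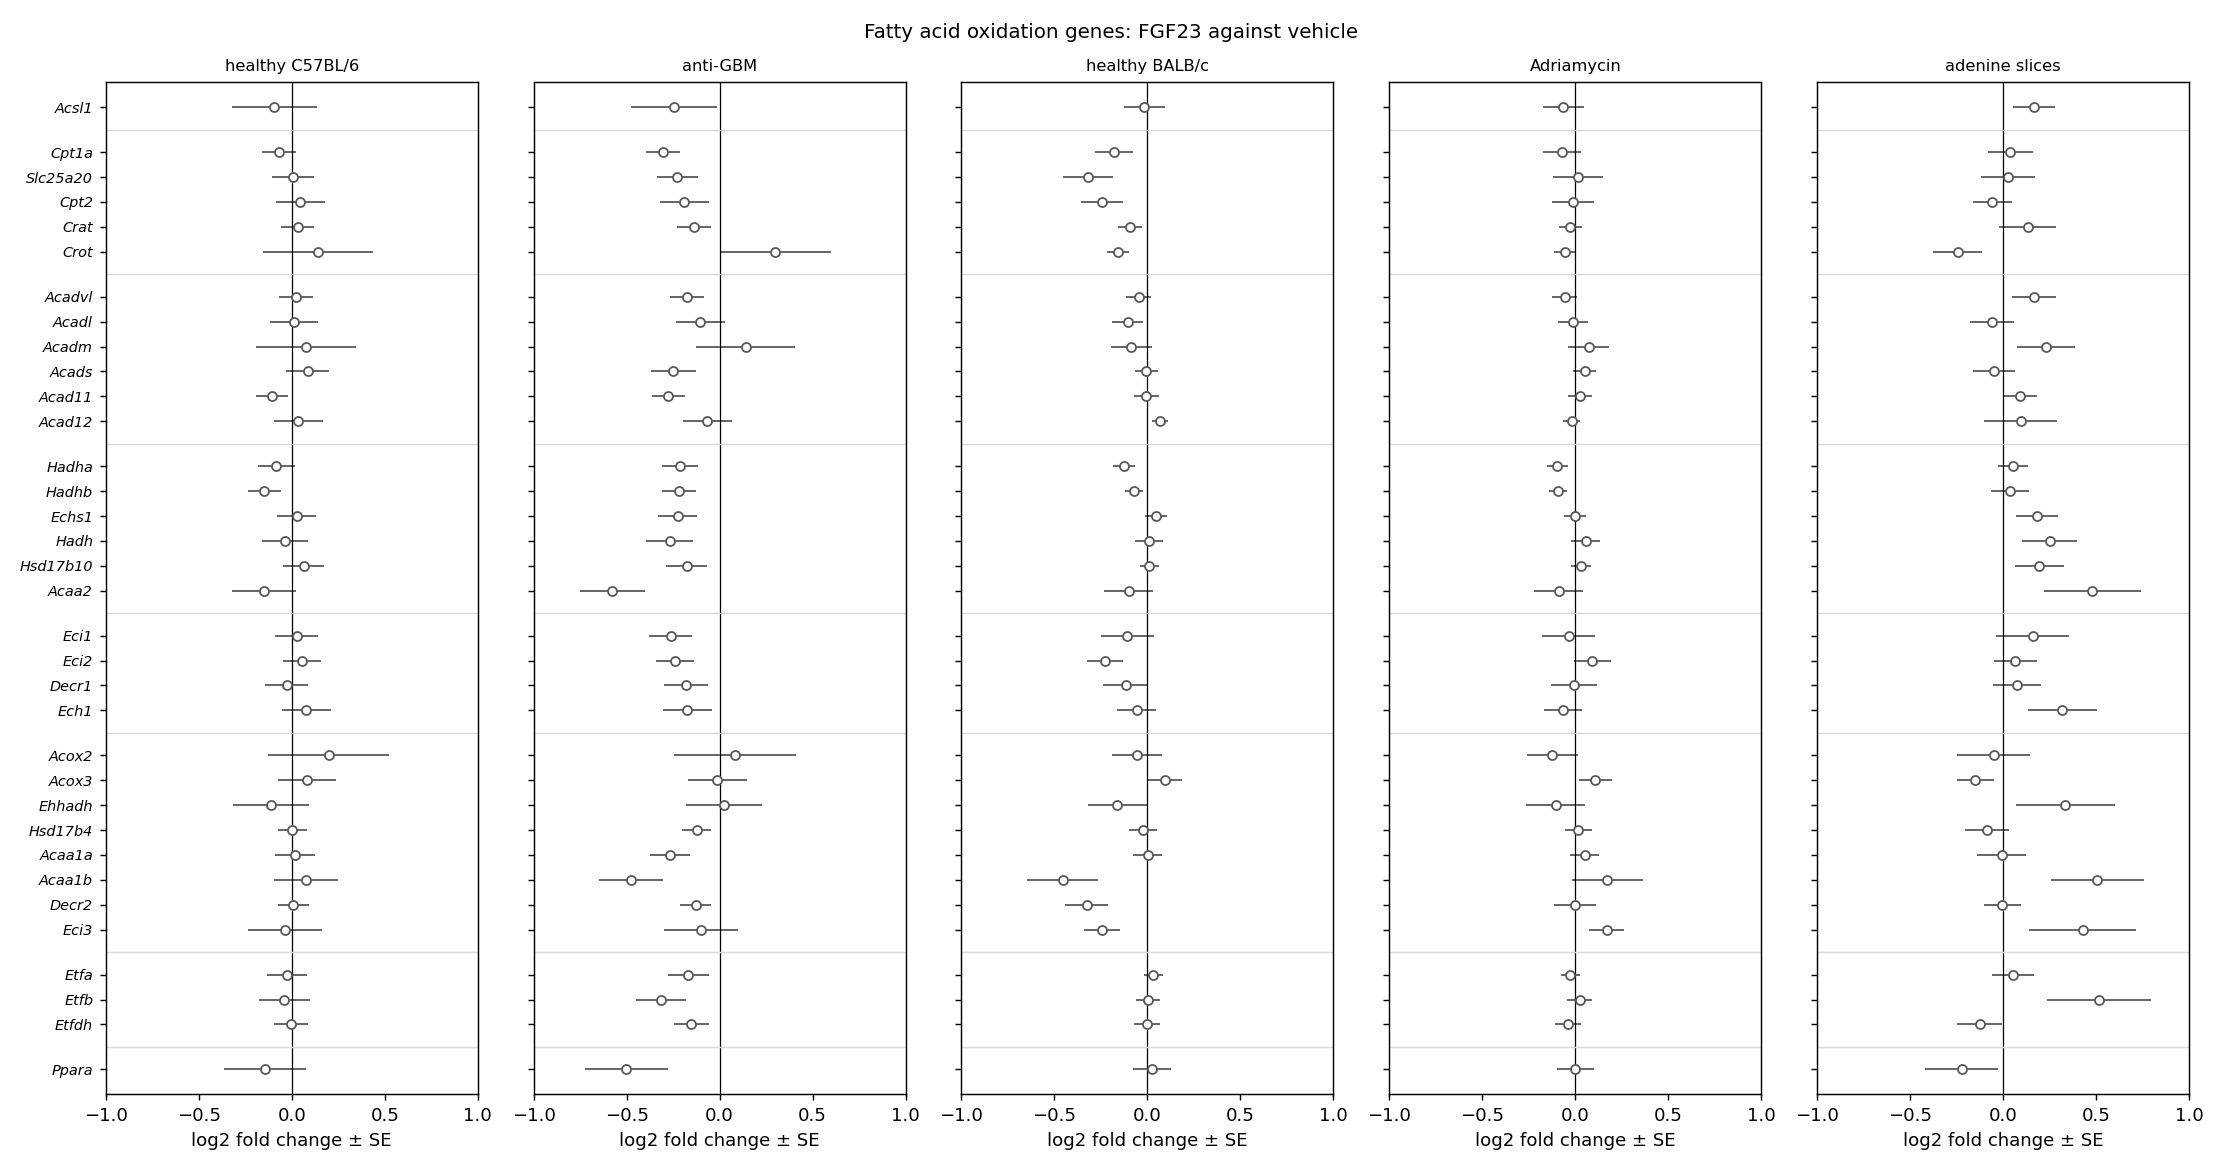
Log2 fold change of each of the 34 members with its standard error, FGF23 against vehicle, in healthy and anti-GBM C57BL/6 kidneys, healthy and Adriamycin BALB/c kidneys and adenine slices. No member is called in any of the 5 comparisons, and the anti-GBM values lie below 0 for 30 of 34 members.

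In the slices of adenine-fed mice the members averaged 5.05 ± 0.05 (SD, n = 4) log2 CPM with vehicle and 5.14 ± 0.25 (SD, n = 4) with FGF23. The uncultured kidney samples of the other experiments had means of 7.27 to 7.76. Per the study's text those were fragments of the renal pars intermedia, whereas the slices held cortex and medulla. Strain, injury, culture, region and scaling differ together between them, and their parts cannot be told apart. FGF23 went with higher values of 23 members, with a median of 0.07, which turned to -0.07 without 1V and 1F. By edgeR 0 members and 0% of all genes were called, 0 members had an unadjusted p under 0.05, where 4.89% of genes did, and DESeq2 called 0 members and 0.00674% of genes. Culture 1F was the highest FGF23 culture in all of the genes given next except Ppara, and its proximal tubule markers summed to 1338 CPM, against 694 to 884 CPM in the vehicle cultures.

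Cpt1a had 91.9, 97.4, 98.7 and 94.0 CPM with vehicle and 125, 91.3, 81.7 and 94.0 CPM with FGF23, a change of 0.04 ± 0.12. Acadm had 71.7, 71.8, 74.0 and 62.8 CPM against 116, 70.4, 75.8 and 67.6 CPM and changed by 0.23 ± 0.16. Hadha, with 170.4, 161, 165 and 159.8 CPM against 189.7, 163, 169 and 159 CPM, changed by 0.05 ± 0.08. Outside 1F the groups overlapped in these 3 genes. Ehhadh had 13.1, 15.9, 13.7 and 15.2 CPM with vehicle and 30.8, 11.9, 18.3 and 12.4 CPM with FGF23 and changed by 0.34 ± 0.27. Acaa1a had 34.5, 44.1, 36.1 and 40.8 CPM against 48.0, 35.8, 39.4 and 31.9 CPM and Acaa1b 9.34, 9.20, 10.9 and 9.37 CPM against 22.7, 9.85, 12.6 and 10.1 CPM, and their sum changed by 0.11 ± 0.15. Ppara was low, with 3.21, 5.27, 4.32 and 3.63 CPM against 3.55, 3.24, 3.46 and 3.90 CPM and a change of -0.22 ± 0.19.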

How the data were processed

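Kidney RNA was converted to stranded mRNA libraries and sequenced as paired reads. Per the labels and the study's methods, the authors mapped them on the GRCm38 genome by STAR (2.7.9a), after bcl2fastq (2.20.0) and FastQC (0.11.8), and counted them on Ensembl genes with featureCounts (1.5.1). The deposited values are raw counts of 55487 genes, unfiltered and not normalized, from 38 libraries, and 0 columns were unused. Groups are those of the labels. Columns of the slices carry the sample number, and those of the anti-GBM and Adriamycin kidneys only a mouse name, which the header of the study's supplementary count tables ties to a group. Symbols matched 55141 identifiers.

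Each experiment was fitted on its own with all its groups. Counts were filtered with filterByExpr (minimum count 10) and then scaled by TMM over the genes kept. They were tested with edgeR 4.0.16 in R 4.3.3 (quasi-likelihood, 1 mean per group), on 15859 (anti-GBM), 16020 (Adriamycin) and 15090 (slices) genes. The study names DESeq2, run here as an alternative (1.42.0). The script was tested on simulated data. Averages over members or markers used log2 CPM with a prior count of 2. Exon lengths came from GENCODE M21 on GRCm38. Replicates within each group were compared and none was a repeat of another. They are separate mice or cultures by the labels, and p-values measure the spread between them. Named in full are the 8 called members with the smallest p per comparison, in both vehicle disease comparisons the member with the smallest p of each role, and Ppara, Cpt1a, Acadm, Ehhadh, Hadha, Acaa1a and Acaa1b throughout. Of each wider list the 4 called genes with the smallest p are named. The members and lists were chosen with earlier results of these data known.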

Additional observations from a re-analysis of the deposited data

Results flagged for a closer look

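In groups of 4 libraries, a library was singled out where its gap to the nearest other exceeded Dixon's 95% limit. This happened in 20 of 272 groups (34 members in 8 groups of libraries), where chance gives about 13.6, or 1 in 20. The values were these, in CPM.

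In the anti-GBM experiment, Acaa2 was high in healthy NTS4 (277), Eci1 high in anti-GBM NTS8 (92.8) and Etfa low in anti-GBM NTS7 (212).

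In the Adriamycin experiment, Ad7, an Adriamycin kidney given vehicle, was high in Slc25a20 (104), Acadvl (394) and Decr1 (214). Ad11, a healthy kidney given FGF23, was low in Cpt1a (429.6) and Acads (122). Acadm was low in Ad5 (731) and in Ad16 (673), and Decr2 was low in Ad15 (77.7). Among healthy vehicle kidneys, Acad11 was high in Ad3 (316), Acad12 high in Ad1 (57.2) and Acox2 low in Ad2 (154). Acad12 was low in the Adriamycin kidney Ad6 (57.3).

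In the slices, FGF23 culture 1F was high in Acadm (116), Echs1 (99.6) and Hsd17b4 (82.2), Crot was low in 3F (30.5), and Acaa1b was high in vehicle culture 3V (10.9).

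Acad12 was lower in every anti-GBM vehicle kidney than in every healthy one (log2 fold change -0.71, called) and higher in every Adriamycin vehicle kidney than in every healthy one (0.16, not called, edgeR adjusted p = 0.21). The second separation was slight, with 57.3 CPM in the lowest Adriamycin and 57.2 CPM in the highest healthy kidney. The difference between the diseases was not tested, since strain, sex and experiment differ with it.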

How the results depend on the processing

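No result changed direction among the called members under the alternatives tried: another normalization (RLE), no count filter, DESeq2, adjustment over the 5 comparisons of an experiment combined, only the groups compared, an absolute log2 fold change over 1, and leaving out each library, together with the exclusion of libraries chosen after seeing the data.

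In anti-GBM against healthy with vehicle, 17 members were called. The count was 10 with combined adjustment, 11 with only the groups compared and 1 (Ehhadh) with a log2 fold change over 1, and from 9 (without NTS1) to 15 when 1 library was left out. The median without NTS2 was -0.16. With FGF23, 24 were called, 1 (Acox2) with a log2 fold change over 1, 9 without NTS3 and NTS9, and 10 (without NTS9) to 24 when 1 library was left out. In FGF23 against vehicle in anti-GBM kidneys, combined adjustment called 1 member, against 0, and the median was -0.12 without NTS8. In Adriamycin against healthy with FGF23, DESeq2 called 1 and edgeR without Ad9 and Ad10 called 1, against 0. The median of the Adriamycin interaction was 0.15 without Ad9 and Ad10, against 0.04. Of these alternatives, the share of all genes called was counted only for DESeq2. The cause of the changes was not tested.

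For the anti-GBM and Adriamycin experiments no paired analysis was possible because the count columns of their groups share no replicate numbers. In the slices, same-numbered cultures correlated by 0.107, 0.105, -0.105 and 0.112 in their deviations from the group means. Cultures 1V, 2V, 4V, 2F and 4F correlated best with their own number, and 3V, 1F and 3F with another. This does not settle whether the numbers pair the cultures, and the main fit left them unpaired. With a replicate block the count of called members stayed at 0, with a median of 0.06 against 0.07. Without 1V and 1F the slice median turned from above 0 to below it.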

Other observations

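Some PPAR-alpha target genes outside beta-oxidation varied widely between kidneys of a group, and they are named here after their values were seen. Cyp4a14, which hydroxylates fatty acids, had 21.8, 61.8, 446 and 325 CPM in the anti-GBM vehicle kidneys NTS5 to NTS8, against 9.73 to 99.0 CPM in the healthy vehicle kidneys and 58.4 to 68.4 CPM in the anti-GBM FGF23 kidneys. Pdk4, which restrains the use of pyruvate, had 61.2, 63.4, 83.1 and 182 CPM in NTS5 to NTS8. It had 12.6 to 72.8 CPM in the healthy vehicle kidneys and 25.7 to 47.1 CPM in the anti-GBM FGF23 kidneys. NTS7 and NTS8 were the highest anti-GBM vehicle kidneys in both genes, although in Pdk4 NTS7 was nearer to NTS6 than to NTS8. They were also the anti-GBM vehicle kidneys with the higher Acsl1.

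The carnitine octanoyltransferase gene Crot had 389 to 951 CPM in the healthy C57BL/6 kidneys given vehicle or FGF23. In the healthy BALB/c kidneys given vehicle it had 174 to 199 CPM. Its mean with vehicle was 109.5 CPM per kilobase in healthy C57BL/6 and 34.4 in healthy BALB/c kidneys. With FGF23 these means were 120.9 and 30.9 CPM per kilobase. Strain, sex and experiment differ together here, and their parts cannot be told apart.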
